A study of Mus musculus with 9 samples.

Results

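The genes described here are 35 genes of the cell division cycle, of 22036 annotated genes in the table of read counts. They were taken by symbol: 11 act in copying DNA or in entering that phase (Mcm2, Mcm3, Mcm4, Mcm5, Mcm6, Mcm7, Pcna, Rrm2, Tyms, Ccne1 and Ccne2), and 24 act in or mark mitosis. Left ventricles of 9 wild-type mice were profiled by bulk mRNA sequencing, with 3 mice per group that the labels call biological replicates. HFD+AAV-BCKDK mice had the diet labelled HFD (read as high-fat diet) and an adeno-associated virus named for BCKDK, the mitochondrial kinase that inhibits branched-chain keto acid dehydrogenase. HFD+AAV-CON mice had the same diet and a control virus, and ND+AAV-CON mice had the diet labelled ND (read as normal diet) and the control virus. All 3 groups thus carried a virus. The sources used here do not give age, the make-up and length of the diet, the dose of virus or the promoter in the vector. The series title asks about protection of the obese heart by BCKDK.

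A dividing cell first loads the MCM helicase, a ring of Mcm2 to Mcm7, onto its DNA, and cyclin E with its kinase helps to start copying. Nucleotide supply by ribonucleotide reductase and thymidylate synthase and the sliding clamp PCNA serve the copying itself. Later the kinase CDK1 with cyclins A and B drives the cell into mitosis, where kinetochore, spindle and checkpoint proteins separate the chromosomes and the anaphase-promoting complex ends the process. Adult cardiomyocytes rarely complete this cycle, while fibroblasts, endothelial cells and immune cells of the heart can. Transcription of the replication genes is known to depend on E2F factors, and that of the mitotic genes on the DREAM and B-MYB-MuvB complexes, which bind the cell cycle genes homology region (CHR), usually with CCAAT boxes that NF-Y binds. In bulk tissue, a change in the number of dividing cells and a change in RNA per cell cannot be told apart.

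The sequences around the gene starts are shown because most of the 35 genes moved together. RefSeq windows of build GRCm38.p6, 300 bases long with 250 before the start, were at hand for 29 of the 35 genes; Mcm4, Ccne2, Ccna2, Aurkb, Kif20a and Tpx2 were not matched. Each window was searched on both strands for the CHR (spelled TTTGAA or TTTAAA, the second being its own reverse complement), for CCAAT, and for 4 spellings of an E2F site (TTTGGCGC, TTTCCCGC, TTTGCCGC and TTTCGCGC). Below, the 170 bases before the start to 29 after it are printed 5′ to 3′ along the gene, with matches in capitals, in either orientation (TTCAAA is TTTGAA and ATTGG is CCAAT on the other strand). Among the mitotic genes, Cdk1 (chr10:69352883-69353082, minus strand), Ccnb1 (chr13:100786457-100786656, minus strand), Ccnb2 (chr9:70421525-70421724, minus strand) and Ube2c (chr2:164769759-164769958, plus strand) stand for those that rose under the diet, and Cenpa (chr5:30666716-30666915, plus strand) and Cenpf (chr1:189688057-189688256, minus strand) for those that did not.
Cdk1: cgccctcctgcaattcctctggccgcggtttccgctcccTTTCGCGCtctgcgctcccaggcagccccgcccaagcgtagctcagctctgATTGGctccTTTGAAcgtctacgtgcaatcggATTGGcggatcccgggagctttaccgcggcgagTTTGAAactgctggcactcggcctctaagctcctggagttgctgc
Ccnb1: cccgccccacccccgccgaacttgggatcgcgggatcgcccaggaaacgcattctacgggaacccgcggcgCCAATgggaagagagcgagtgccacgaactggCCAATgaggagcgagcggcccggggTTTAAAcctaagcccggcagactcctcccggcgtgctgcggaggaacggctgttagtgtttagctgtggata
Ccnb2: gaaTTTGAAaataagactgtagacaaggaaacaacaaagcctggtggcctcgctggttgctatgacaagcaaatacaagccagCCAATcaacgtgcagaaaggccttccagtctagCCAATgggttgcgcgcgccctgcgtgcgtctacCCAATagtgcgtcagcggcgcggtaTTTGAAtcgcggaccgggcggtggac
Ube2c: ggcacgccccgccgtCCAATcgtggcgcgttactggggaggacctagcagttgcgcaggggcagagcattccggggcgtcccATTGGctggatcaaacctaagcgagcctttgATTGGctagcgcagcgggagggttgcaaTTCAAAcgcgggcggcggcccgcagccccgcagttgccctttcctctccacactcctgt
Cenpa: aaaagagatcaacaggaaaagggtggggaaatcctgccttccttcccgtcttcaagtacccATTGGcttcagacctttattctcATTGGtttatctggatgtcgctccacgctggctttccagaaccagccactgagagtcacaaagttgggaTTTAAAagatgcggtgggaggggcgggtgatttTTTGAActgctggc
Cenpf: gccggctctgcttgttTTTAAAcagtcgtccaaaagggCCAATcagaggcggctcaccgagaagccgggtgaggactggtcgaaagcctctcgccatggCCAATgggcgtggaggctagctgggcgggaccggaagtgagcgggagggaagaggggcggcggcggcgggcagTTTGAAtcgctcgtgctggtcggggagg

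Among the replication genes, Mcm5 (chr8:75109339-75109538, plus strand) and Mcm6 (chr1:128359676-128359875, minus strand) rose most of the MCM genes, and Pcna (chr2:132253151-132253350, minus strand) was not called. The start used for Pcna lay 134 bases from the nearest GENCODE coding start, so the placement of its window is less certain. In Mcm5 and Mcm6 2 E2F spellings overlap, so that the capitals run on as 1 block.
Mcm5: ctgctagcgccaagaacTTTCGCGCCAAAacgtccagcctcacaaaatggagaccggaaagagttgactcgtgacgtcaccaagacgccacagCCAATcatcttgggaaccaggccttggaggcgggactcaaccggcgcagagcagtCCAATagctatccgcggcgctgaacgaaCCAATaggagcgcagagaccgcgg
Mcm6: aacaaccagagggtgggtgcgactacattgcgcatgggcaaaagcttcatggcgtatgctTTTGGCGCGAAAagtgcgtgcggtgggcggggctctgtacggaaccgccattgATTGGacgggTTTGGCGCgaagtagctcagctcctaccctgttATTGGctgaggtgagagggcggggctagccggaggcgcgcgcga
Pcna: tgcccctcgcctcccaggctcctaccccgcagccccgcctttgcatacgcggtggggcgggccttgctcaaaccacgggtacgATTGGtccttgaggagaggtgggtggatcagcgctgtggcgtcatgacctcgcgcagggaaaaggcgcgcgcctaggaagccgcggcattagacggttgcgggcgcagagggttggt

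A CHR was found in 18 of the 20 mitotic windows (90%), in 4 of the 9 replication windows (44.4%) and in 27.8% of all 27018 promoter windows of the same length. Counting only matches that began no more than 100 bases before the start, the shares were 85% of mitotic windows, 33.3% of replication windows and 12.9% of all windows. CCAAT was present in 90% of the mitotic, 77.8% of the replication and 37.9% of all windows, and both motifs stood together in 85% of the mitotic, 33.3% of the replication and 10.9% of all windows. The E2F spellings showed the other order: 4 of 9 replication windows (Mcm3, Mcm5, Mcm6 and Mcm7), 1 of 20 mitotic windows (Cdk1) and 2.32% of all windows held one. Rrm2, Tyms and Mcm2 held none and rose under the diet, by 1.75, 1.04 and 0.62 on the log2 scale. Pcna and Ccne1 held none either and were not called. Mcm7, with 2 matches, rose by 0.44, the least of the MCM genes. No CHR was matched in the windows of Bub1 and Nusap1, although both rose under the diet (1.77 and 1.11 on the log2 scale). Birc5, which rose by 1.37, held no CCAAT, and its CHR began 220 bases before the start. The windows of Cenpa and Cenpf held both CHR spellings and 2 CCAAT each. Matches are letters in a window, not measured binding.

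**Figure D1:**
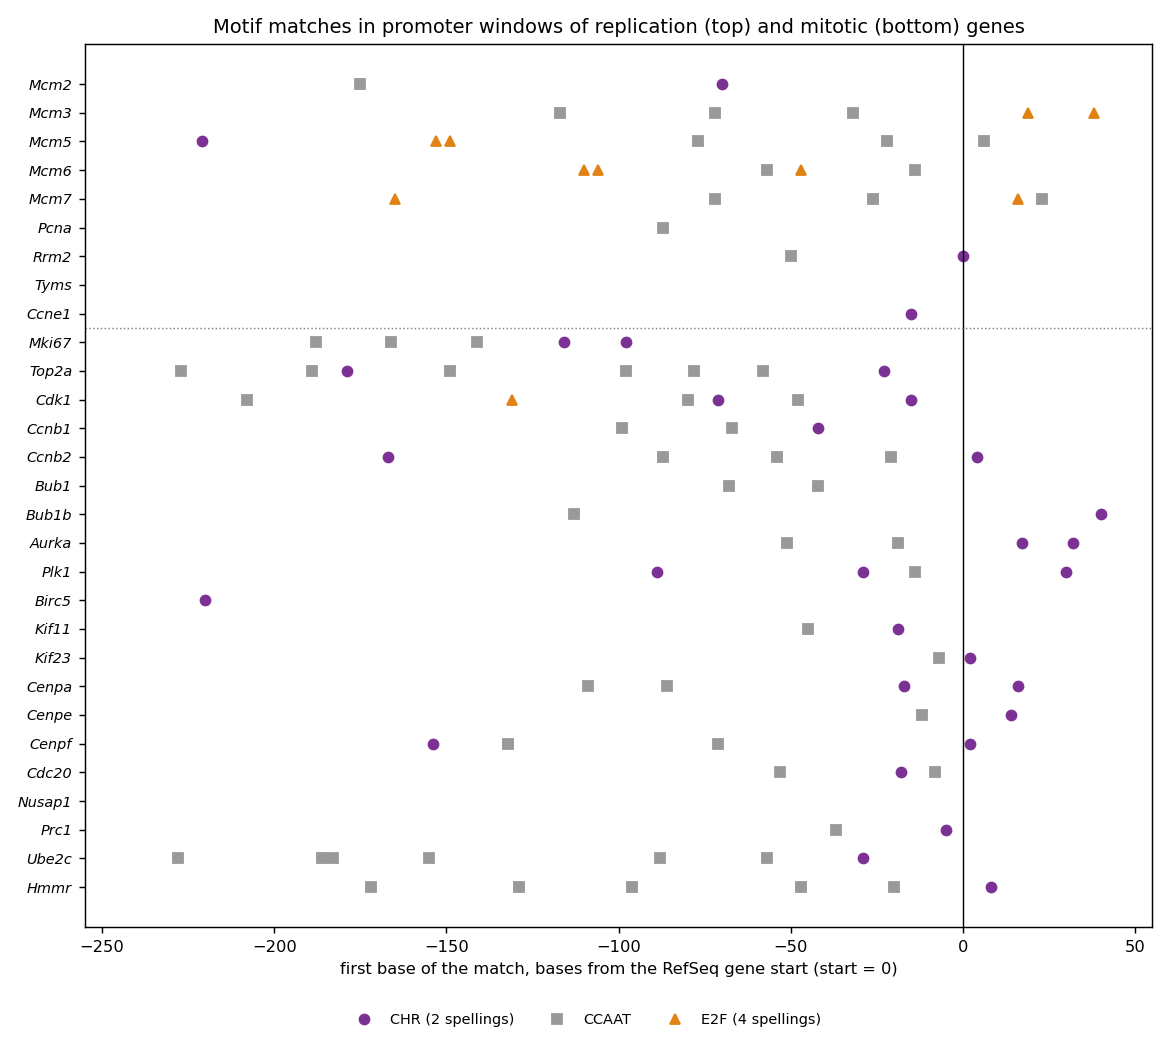
Position of motif matches in 29 promoter windows, with bases from the RefSeq start on the x axis, replication genes above the dotted line and mitotic genes below it. Circles are CHR matches, squares CCAAT and triangles E2F spellings. CHR matches of the mitotic genes lie mostly near the start, and the E2F spellings lie in Mcm3, Mcm5, Mcm6, Mcm7 and Cdk1.

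Annotated genes received 32803233 to 45483044 reads per library, and all 35 genes passed the filter on low counts. Together they took 5284, 5309 and 7677 reads in the HFD+AAV-BCKDK libraries, 22148, 10472 and 13761 reads in the HFD+AAV-CON libraries and 7009, 5983 and 7122 reads in the ND+AAV-CON libraries (here and below in the order of replicates 1, 2 and 3). A single value rests on few reads: the median over genes and libraries was 108 reads in HFD+AAV-BCKDK, 325 in HFD+AAV-CON and 102 in ND+AAV-CON, and the lowest was 10 (Bub1 in an ND+AAV-CON library). Bckdk itself, the check of the vector, had 111, 126 and 120 CPM (reads scaled to library size with TMM factors) in HFD+AAV-BCKDK, 37.1, 65.0 and 49.4 CPM in HFD+AAV-CON and 78.6, 70.3 and 70.6 CPM in ND+AAV-CON. Its log2 change was 1.24 (SE 0.17, edgeR adjusted p = 0.00161) in HFD+AAV-BCKDK relative to HFD+AAV-CON and -0.54 (SE 0.17, adjusted p = 0.0300) in HFD+AAV-CON relative to ND+AAV-CON. The fall under the diet lost its call without any 1 ND+AAV-CON library or when replicate 1 or 3 of HFD+AAV-CON was left out (adjusted p from 0.0525 to 0.0905), and under total-count scaling (-0.18, adjusted p = 0.189). That fall was also not called in a fit of HFD+AAV-CON and ND+AAV-CON alone (adjusted p = 0.0643). Bckdk was not called between HFD+AAV-BCKDK and ND+AAV-CON (0.70, adjusted p = 0.0700), but was by DESeq2 (adjusted p = 0.00274), under total-count scaling (adjusted p = 0.0238), in a fit of those groups alone (adjusted p = 0.00158), and when replicate 1 or 2 of HFD+AAV-CON was left out. HFD+AAV-CON replicate 3 stood apart. Unnamed loci took 1.02% of its reads, against 4.75% to 6.01% in the other 8 libraries, and it held the middle value of its group for 64.2% of the 14160 genes tested, against 14.9% to 37.6% for the other libraries. It was also the middle library for 23 of the 35 genes, while replicate 1 was the highest for 27 and replicate 2 the lowest for 23. Whether it is an independent library cannot be told from these values; if it is not, the SDs and SEs of HFD+AAV-CON would rest on fewer than 3 samples and would be too small. Calls of the 35 genes that were lost without it, and list counts that moved by more than 1.5 times without it, are given with the results below.

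Both classes were high in the hearts of HFD+AAV-CON mice. Summed over the 11 replication genes, the level was 89.4, 90.1 and 90.1 CPM in HFD+AAV-BCKDK, 161.5, 121.5 and 152.7 CPM in HFD+AAV-CON and 95.2, 79.1 and 101.2 CPM in ND+AAV-CON. Over the 24 mitotic genes the sums were 90.9, 97.6 and 92.2 CPM in HFD+AAV-BCKDK, 193.7, 160.5 and 175.3 CPM in HFD+AAV-CON and 96.4, 82.4 and 78.6 CPM in ND+AAV-CON. Every HFD+AAV-CON library lay above the 6 others in both sums, and the ranges of HFD+AAV-BCKDK and ND+AAV-CON overlapped.

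Per length of exon the classes differed in level. The median replication gene had 1.57 FPKM in HFD+AAV-BCKDK, 2.55 in HFD+AAV-CON and 1.23 in ND+AAV-CON, and the median mitotic gene 0.539, 1.43 and 0.520 FPKM in the same groups. Pcna was the most abundant of the 35 in each group, at 16.0 ± 0.3 FPKM in HFD+AAV-BCKDK, 19.3 ± 2.3 in HFD+AAV-CON and 16.6 ± 2.0 in ND+AAV-CON (SD, n = 3 each). Cenpa was next in ND+AAV-CON, at 4.46 ± 0.52 FPKM, with a range of 3.87 to 4.83 that did not meet that of Mcm4, the third, at 2.05 to 2.6 FPKM. Cenpe (0.0928 FPKM) and Bub1 (0.174 FPKM) were lowest there, and their ranges overlapped. In HFD+AAV-CON, Mcm6, Rrm2, Mcm4, Cenpa, Mcm3 and Ccnb2 followed Pcna with means between 4.46 and 3.19 FPKM and ranges that overlapped from each to the next.

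**Figure D2:**
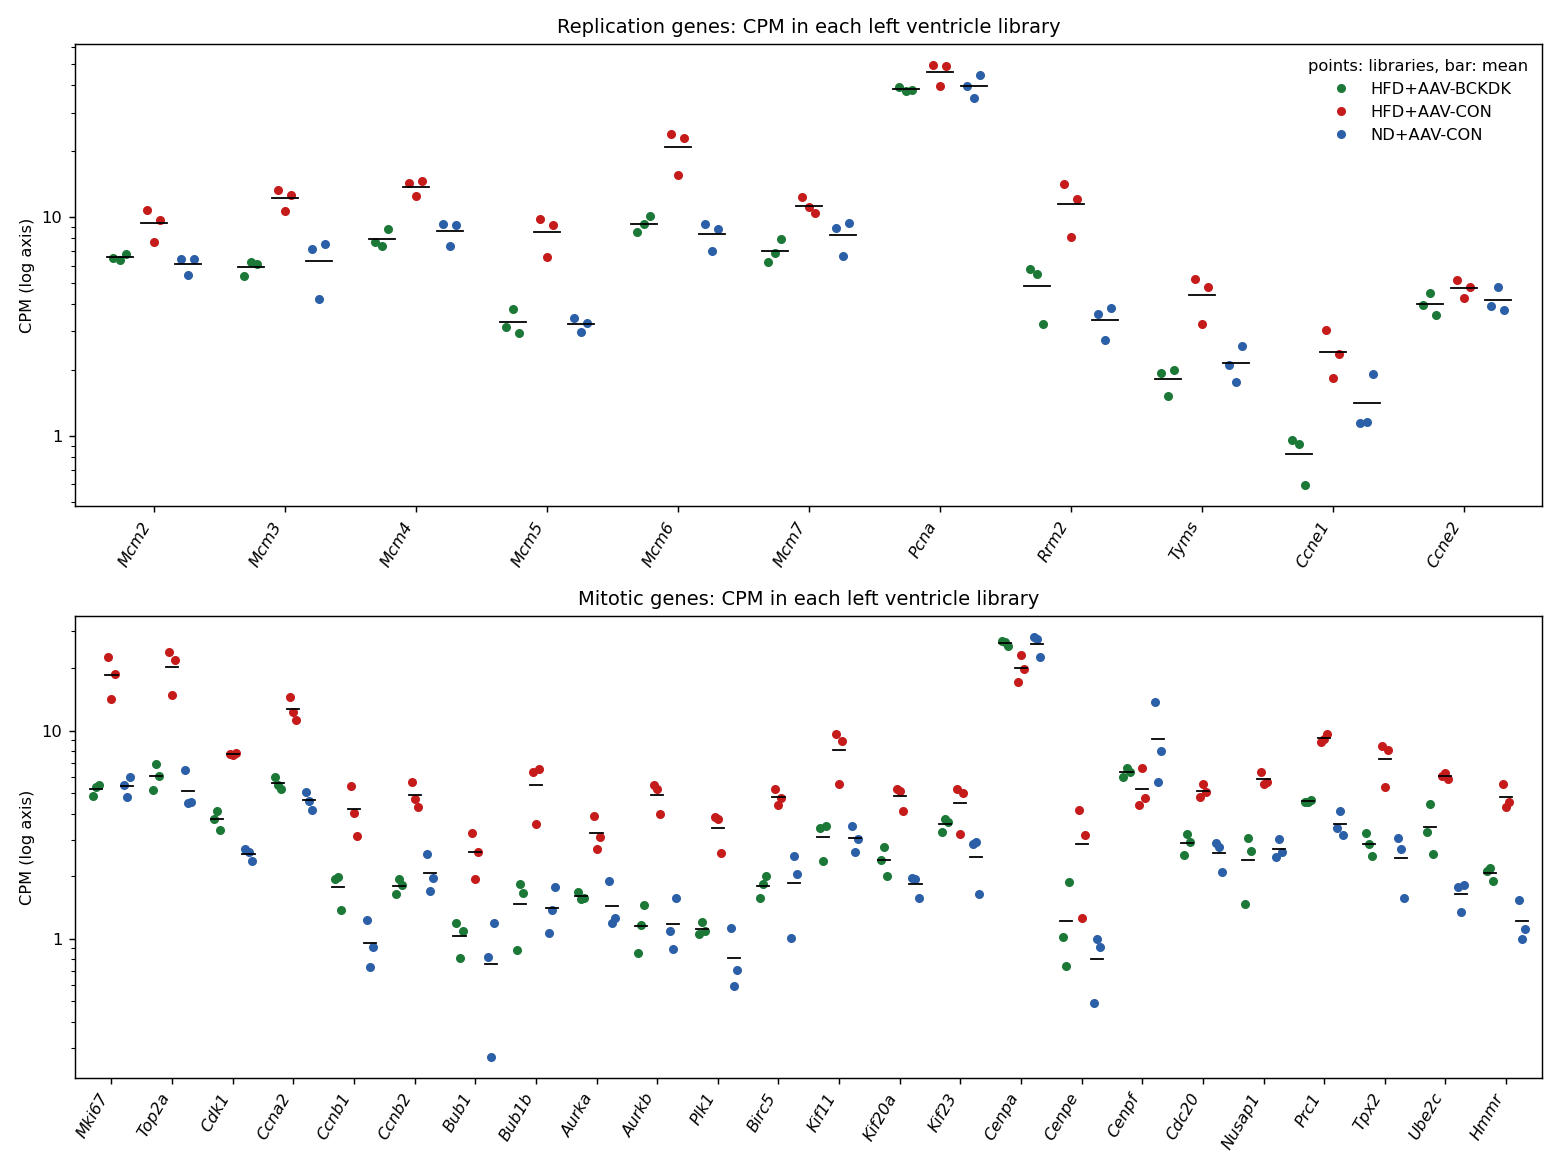
CPM on a log axis for each of the 35 genes, with replication genes in the upper panel and mitotic genes in the lower, 1 point per library and a bar at the group mean. Green is HFD+AAV-BCKDK, red HFD+AAV-CON and blue ND+AAV-CON; the red points stand above the others for most genes, and in Pcna, Ccne1, Ccne2, Kif23, Cenpe, Cenpa and Cenpf not every red point lies above all others.

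The first comparison set HFD+AAV-CON relative to ND+AAV-CON, that is, the diet under the control virus. Of the 35 genes, 30 were called higher and 1 lower at an adjusted p under 0.05, where 22.7% of all genes tested were called higher and 20.6% lower. The median log2 fold change was 0.77 over the replication genes and 1.52 over the mitotic genes, against -0.0018 over all genes. At least 2-fold and called higher were 4 of the 11 replication and 20 of the 24 mitotic genes, against 10.5% of all genes. In 30 of the 35 genes every HFD+AAV-CON library lay above every ND+AAV-CON library, which held for 28.2% of all genes. Changes of single genes below are log2 fold changes unless a unit is given.

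Of the helicase ring, all 6 subunits rose. Mcm5 had 9.85, 6.54 and 9.18 CPM in HFD+AAV-CON, against 3.44, 3.00 and 3.28 CPM in ND+AAV-CON, a log2 change of 1.40 (SE 0.18, adjusted p = 0.00086). For Mcm6 the values were 23.9, 15.6 and 23.0 CPM in HFD+AAV-CON and 9.27, 6.97 and 8.79 CPM in ND+AAV-CON (1.32, SE 0.18, adjusted p = 0.00088). These groups did not overlap in either gene, and replicate 2 was the lowest of HFD+AAV-CON in both. Mcm3 rose by 0.95 (SE 0.20), Mcm4 by 0.67 (SE 0.13) and Mcm2 by 0.62 (SE 0.14). Mcm7 rose least, by 0.44 (SE 0.15, adjusted p = 0.0408), with 12.3, 11.1 and 10.5 CPM in HFD+AAV-CON against 8.89, 6.67 and 9.42 CPM in ND+AAV-CON. Its call was lost without any 1 of 6 libraries (HFD+AAV-BCKDK replicate 2, HFD+AAV-CON replicates 1, 2 and 3, ND+AAV-CON replicates 1 and 2), with adjusted p from 0.0530 to 0.129. It was also lost with upper-quartile factors, a replicate block, unnamed loci kept or the 2 groups alone (adjusted p from 0.0501 to 0.0612). The 6 subunits of 1 complex thus changed by between 0.44 and 1.40 on the log2 scale.

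Of the nucleotide enzymes, Rrm2, the S-phase subunit of ribonucleotide reductase, rose most of all the replication genes. It had 14.1, 8.10 and 12 CPM in HFD+AAV-CON and 3.61, 2.75 and 3.84 CPM in ND+AAV-CON, a change of 1.75 (SE 0.27, adjusted p = 0.00152). Tyms, which makes thymidylate, had 5.21, 3.26 and 4.77 CPM in HFD+AAV-CON against 2.11, 1.75 and 2.58 CPM in ND+AAV-CON (1.04, SE 0.24, adjusted p = 0.00797). The groups stood apart in both genes. Pcna, which also serves in DNA repair, had 49.6, 39.9 and 49.3 CPM in HFD+AAV-CON and 39.9, 35 and 44.4 CPM in ND+AAV-CON. The groups overlapped, and the difference of 0.22 was not called (95% interval -0.029 to 0.46, adjusted p = 0.134).

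The E cyclins, partners of CDK2 at the start of S phase, were not called either. Ccne1 had 3.03, 1.83 and 2.36 CPM in HFD+AAV-CON against 1.15, 1.16 and 1.92 CPM in ND+AAV-CON, a difference of 0.77 (95% interval 0.063 to 1.49, adjusted p = 0.0738). Ccne2 had 5.16, 4.25 and 4.77 CPM in HFD+AAV-CON against 3.94, 4.81 and 3.76 CPM in ND+AAV-CON (0.18, 95% interval -0.18 to 0.55, adjusted p = 0.380). Without HFD+AAV-CON replicate 2, Pcna (0.31, adjusted p = 0.0224) and Ccne1 (0.93, adjusted p = 0.0440) passed the threshold, and Ccne1 passed it without ND+AAV-CON replicate 3 as well (1.06, adjusted p = 0.0390). With all libraries kept, limma-voom called Ccne1 higher (0.83, adjusted p = 0.0424). Under total-count scaling Pcna, Ccne1 and Ccne2 were called higher (adjusted p from 0.0169 to 0.0441).

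Of the kinases and cyclins that drive mitosis, every one measured rose. Cdk1 had 7.75, 7.65 and 7.80 CPM in HFD+AAV-CON and 2.71, 2.62 and 2.37 CPM in ND+AAV-CON, a change of 1.59 (SE 0.14, adjusted p = 0.000312). Its 3 HFD+AAV-CON libraries were nearly equal, although most genes differed between them. Ccnb1, the main mitotic cyclin, had 5.44, 4.04 and 3.12 CPM in HFD+AAV-CON and 1.23, 0.729 and 0.909 CPM in ND+AAV-CON, the largest change of the 35 genes (2.14, SE 0.30, adjusted p = 0.00104). Ccnb2 rose by 1.24 (SE 0.21) and Ccna2, the cyclin of S phase and early mitosis, by 1.46 (SE 0.14). Plk1, a kinase of spindle poles and mitotic entry, had 3.87, 3.77 and 2.6 CPM in HFD+AAV-CON against 1.12, 0.594 and 0.707 CPM in ND+AAV-CON (2.08, SE 0.29, adjusted p = 0.00109). Aurkb, the kinase of the chromosomal passenger complex, had 5.47, 5.22 and 3.98 CPM in HFD+AAV-CON against 1.09, 0.891 and 1.57 CPM in ND+AAV-CON (2.04, SE 0.28, adjusted p = 0.001). Its partner Birc5 rose by 1.37 (SE 0.29), and Aurka, which acts at centrosomes, by 1.16 (SE 0.25).

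Proliferation markers and chromosome proteins followed. Mki67, the source of the Ki-67 antigen that coats mitotic chromosomes, had 22.6, 14.2 and 18.7 CPM in HFD+AAV-CON and 5.47, 4.81 and 6.01 CPM in ND+AAV-CON. Top2a, the topoisomerase that untangles sister DNA, had 23.8, 14.8 and 21.9 CPM in HFD+AAV-CON and 6.45, 4.51 and 4.52 CPM in ND+AAV-CON. The changes were 1.77 (SE 0.17) for Mki67 and 1.97 (SE 0.21) for Top2a. In both genes the lowest HFD+AAV-CON library lay far above the highest ND+AAV-CON library, and replicate 1 was the highest.

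Of the spindle genes, Hmmr, a microtubule-associated protein that also binds hyaluronan, rose by 1.99 (SE 0.22, adjusted p = 0.000532). Tpx2, which activates Aurora A on the spindle, rose by 1.59 (SE 0.27), and the motor Kif11, which pushes spindle poles apart, by 1.41 (SE 0.24). Nusap1, a microtubule bundler, rose by 1.11 (SE 0.24). The 3 genes of the central spindle and cytokinesis differed in size: Kif20a rose by 1.40 (SE 0.20), Prc1 by 1.37 (SE 0.13) and Kif23 by 0.86 (SE 0.26, adjusted p = 0.0256). Kif23 was no longer called when replicate 1 or 3 of HFD+AAV-CON or replicate 3 of ND+AAV-CON was left out (0.64 to 0.78, adjusted p from 0.0669 to 0.0879). Its call was also lost in a fit of the 2 groups alone (adjusted p = 0.0564).

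Of the checkpoint and exit genes, Bub1b, a checkpoint kinase-like protein, rose by 1.97 (SE 0.34, adjusted p = 0.00223), and Bub1 by 1.77 (SE 0.45, adjusted p = 0.0125). Bub1 varied much within ND+AAV-CON, where it had 0.820, 0.270 and 1.19 CPM, all below the 3.24, 1.94 and 2.62 CPM in HFD+AAV-CON. Cdc20, the activator of the anaphase-promoting complex, had 4.80, 5.57 and 5.08 CPM in HFD+AAV-CON against 2.90, 2.75 and 2.10 CPM in ND+AAV-CON (0.99, SE 0.18, adjusted p = 0.00276). Ube2c, the ubiquitin-conjugating enzyme of that complex, had 6.05, 6.27 and 5.89 CPM in HFD+AAV-CON against 1.78, 1.35 and 1.82 CPM in ND+AAV-CON (1.88, SE 0.22, adjusted p = 0.000651). As in Cdk1, the 3 HFD+AAV-CON libraries of Ube2c were close to each other.

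The centromere genes did not move as 1 group. Cenpe, a kinetochore motor, rose by 1.84 (SE 0.50, adjusted p = 0.0167), with 4.14, 1.27 and 3.15 CPM in HFD+AAV-CON and 0.492, 0.999 and 0.909 CPM in ND+AAV-CON. It was not called when replicate 1 or 3 of HFD+AAV-CON or replicate 1 of ND+AAV-CON was left out (1.46 to 1.76, adjusted p from 0.0517 to 0.0610). Cenpa, the histone H3 variant that marks centromeres, was the only one of the 35 called lower, with a change of -0.39 (SE 0.12, adjusted p = 0.0311). It had 17.1, 23.2 and 19.7 CPM in HFD+AAV-CON against 28.3, 27.5 and 22.7 CPM in ND+AAV-CON, and the groups overlapped. The call ended when replicate 1 or 3 of HFD+AAV-CON or replicate 1 or 2 of ND+AAV-CON was left out (-0.38 to -0.29, adjusted p from 0.0874 to 0.101), and under total-count scaling (-0.0066, adjusted p = 0.964). It also ended in a fit of the 2 groups alone (adjusted p = 0.0659). Cenpf, a large kinetochore and nuclear matrix protein, had 4.39, 6.65 and 4.77 CPM in HFD+AAV-CON against 13.7, 5.67 and 7.98 CPM in ND+AAV-CON. The difference of -0.79 was not called (95% interval -1.44 to -0.14, adjusted p = 0.0509), and 1 ND+AAV-CON library, replicate 1, was far above the others. Leaving out replicate 2 of HFD+AAV-CON (adjusted p = 0.0241) or of ND+AAV-CON (-1.04, adjusted p = 0.0176), Cenpf was called lower. With all libraries kept, Cenpf was also called lower by DESeq2 (adjusted p = 0.0253) and with upper-quartile factors (adjusted p = 0.0429). Those were the only 4 of 20 alternatives that called Cenpf, and over the 20 its difference ranged from -1.04 to -0.38.

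The second comparison set HFD+AAV-BCKDK relative to HFD+AAV-CON, that is, the BCKDK virus under the diet. It shares the HFD+AAV-CON libraries with the first, so the signs of the 2 comparisons are not independent, and each is given on its own. Of the 35 genes, 29 were called lower and 1 higher, where 20.9% of all genes tested were called lower and 17.3% higher. The median log2 fold change was -1.05 over the replication genes and -1.24 over the mitotic genes, against -0.010 over all genes. In 30 genes every HFD+AAV-BCKDK library lay below every HFD+AAV-CON library, which held for 27.3% of all genes, and in Cenpa every one lay above (24% of all genes).

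Among the replication genes, 9 of 11 fell, 6 of them at least 2-fold, where 10.3% of all genes did. The largest fall was that of Ccne1, with 0.956, 0.919 and 0.594 CPM in HFD+AAV-BCKDK against 3.03, 1.83 and 2.36 CPM in HFD+AAV-CON (-1.56, SE 0.33, adjusted p = 0.00775). Mcm5 had 3.14, 3.82 and 2.94 CPM in HFD+AAV-BCKDK against 9.85, 6.54 and 9.18 CPM in HFD+AAV-CON (-1.37, SE 0.19, adjusted p = 0.00149). Rrm2 had 5.80, 5.48 and 3.23 CPM in HFD+AAV-BCKDK against 14.1, 8.10 and 12 CPM in HFD+AAV-CON (-1.25, SE 0.27, adjusted p = 0.00786). In all 3 genes the highest HFD+AAV-BCKDK library lay below the lowest HFD+AAV-CON library. Tyms changed by -1.28 (SE 0.24), Mcm6 by -1.16 (SE 0.18), Mcm3 by -1.05 (SE 0.20), Mcm4 by -0.79 (SE 0.13), Mcm7 by -0.69 (SE 0.15) and Mcm2 by -0.52 (SE 0.14, adjusted p = 0.0216). Mcm2 lost its call without HFD+AAV-CON replicate 1 or 3 or HFD+AAV-BCKDK replicate 1 or 2 (adjusted p from 0.0602 to 0.0969). Pcna had 39.3, 37.7 and 37.9 CPM in HFD+AAV-BCKDK against 49.6, 39.9 and 49.3 CPM in HFD+AAV-CON, a difference of -0.27 that was not called (95% interval -0.52 to -0.026, adjusted p = 0.0760) although the groups did not overlap. It was called without HFD+AAV-CON replicate 2 (-0.34, adjusted p = 0.0147). Ccne2, the other E cyclin, differed by -0.24 (95% interval -0.61 to 0.12, adjusted p = 0.264).

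Among the mitotic genes, 20 of 24 fell, 18 of them at least 2-fold. Aurkb fell most, with 0.853, 1.17 and 1.45 CPM in HFD+AAV-BCKDK and 5.47, 5.22 and 3.98 CPM in HFD+AAV-CON (-2.07, SE 0.28, adjusted p = 0.00155). Bub1b had 0.887, 1.84 and 1.66 CPM in HFD+AAV-BCKDK and 6.37, 3.58 and 6.53 CPM in HFD+AAV-CON (-1.91, SE 0.34, adjusted p = 0.00383). Mki67 had 4.85, 5.34 and 5.49 CPM in HFD+AAV-BCKDK and 22.6, 14.2 and 18.7 CPM in HFD+AAV-CON (-1.83, SE 0.17, adjusted p = 0.00106). No library of 1 group reached the other in any of these genes. Top2a had 5.19, 6.93 and 6.03 CPM in HFD+AAV-BCKDK against 23.8, 14.8 and 21.9 CPM in HFD+AAV-CON, a change of -1.74 (SE 0.21, adjusted p = 0.00126). Plk1 had 1.06, 1.20 and 1.09 CPM in HFD+AAV-BCKDK against 3.87, 3.77 and 2.6 CPM in HFD+AAV-CON (-1.61, SE 0.29, adjusted p = 0.00392).

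The other falls of mitotic genes were smaller. Cdk1 had 3.75, 4.14 and 3.35 CPM in HFD+AAV-BCKDK against 7.75, 7.65 and 7.80 CPM in HFD+AAV-CON (-1.05, SE 0.14, adjusted p = 0.00132), and its cyclins changed by -1.44 (Ccnb2, SE 0.21), -1.26 (Ccnb1, SE 0.29) and -1.19 (Ccna2, SE 0.14). Birc5 changed by -1.41 (SE 0.30), Kif11 by -1.38 (SE 0.24), Tpx2 by -1.36 (SE 0.27), Nusap1 by -1.30 (SE 0.24) and Hmmr by -1.22 (SE 0.21). Kif20a changed by -1.03 (SE 0.20), Aurka by -1.02 (SE 0.25) and Prc1 by -1.01 (SE 0.13). The smallest falls called were those of both genes that serve the anaphase-promoting complex, Cdc20 (-0.84, SE 0.18, adjusted p = 0.00792) and Ube2c (-0.83, SE 0.21, adjusted p = 0.0168). Ube2c had 3.28, 4.45 and 2.56 CPM in HFD+AAV-BCKDK against 6.05, 6.27 and 5.89 CPM in HFD+AAV-CON. Ube2c was not called when HFD+AAV-BCKDK replicate 1 or HFD+AAV-CON replicate 3 was left out (adjusted p = 0.0536 and 0.0532), nor was Aurka when HFD+AAV-CON replicate 1 was (-0.83, adjusted p = 0.0600). Bub1 changed by -1.33 (SE 0.45, adjusted p = 0.0407), and its call was lost without any 1 of HFD+AAV-BCKDK replicates 1, 2 and 3, HFD+AAV-CON replicates 1 and 3 and ND+AAV-CON replicate 1 (adjusted p from 0.0588 to 0.135). The call was also lost with unnamed loci kept (adjusted p = 0.0604).

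The other 4 mitotic genes were not called lower. Kif23 had 3.28, 3.75 and 3.63 CPM in HFD+AAV-BCKDK against 5.25, 3.18 and 5.01 CPM in HFD+AAV-CON, where replicate 2 lay below every HFD+AAV-BCKDK library (-0.34, 95% interval -0.92 to 0.25, adjusted p = 0.329). Cenpe differed by -1.22 (95% interval -2.32 to -0.12, adjusted p = 0.0750), with 1.02, 0.742 and 1.88 CPM in HFD+AAV-BCKDK against 4.14, 1.27 and 3.15 CPM in HFD+AAV-CON. Without HFD+AAV-CON replicate 2 it was called lower (-1.54, adjusted p = 0.0132). With all libraries kept, Cenpe was also called lower by DESeq2 (adjusted p = 0.0444) and under total-count scaling (adjusted p = 0.0265). Cenpf differed by 0.27 (95% interval -0.39 to 0.92, adjusted p = 0.496). Cenpa was higher, with 27.1, 26.8 and 25.5 CPM in HFD+AAV-BCKDK against 17.1, 23.2 and 19.7 CPM in HFD+AAV-CON (0.40, SE 0.12, adjusted p = 0.0302). That direction depends on scaling: with total counts alone, Cenpa was at -0.031 (adjusted p = 0.815). The call was also lost without HFD+AAV-CON replicate 1 or 3 or any 1 HFD+AAV-BCKDK library (adjusted p from 0.0579 to 0.0816).

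The third comparison set HFD+AAV-BCKDK relative to ND+AAV-CON, where diet and virus differ together. Of the 35 genes 1 was called, Ube2c, which was higher, where 1.18% of all genes tested were called higher and 2.45% in either direction. At least 2-fold and called higher were 0.219% of all genes. An unadjusted p under 0.05 was reached by 6 of the 35 genes and by 17% of all genes. The median log2 difference was -0.058 over the replication genes and 0.23 over the mitotic genes, against -0.027 over all genes. The 95% interval lay within a 2-fold change either way for 9 of 11 replication genes and 16 of 24 mitotic genes. It reached 2-fold for Rrm2, Ccne1, Ccnb1, Bub1, Plk1, Kif23, Cenpe, Cenpf, Ube2c and Hmmr, so a difference of that size lies within the interval for these 10 genes.

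Ube2c had 3.28, 4.45 and 2.56 CPM in HFD+AAV-BCKDK against 1.78, 1.35 and 1.82 CPM in ND+AAV-CON, a log2 difference of 1.05 (SE 0.23, adjusted p = 0.0465). The call was lost in 13 of 20 alternatives: under total-count scaling (0.98, adjusted p = 0.104) and 5 other settings, and without any 1 library other than HFD+AAV-CON replicates 1 and 2 (adjusted p from 0.0521 to 0.157). Of the mitotic genes, 8 had every HFD+AAV-BCKDK library above every ND+AAV-CON library (12.6% of all genes did): Cdk1, Ccna2, Ccnb1, Kif20a, Kif23, Prc1, Ube2c and Hmmr. Cdk1 had 3.75, 4.14 and 3.35 CPM in HFD+AAV-BCKDK against 2.71, 2.62 and 2.37 CPM in ND+AAV-CON, a difference of 0.54 (95% interval 0.23 to 0.86) that was not called over all genes (adjusted p = 0.0840). Hmmr had 2.12, 2.19 and 1.90 CPM in HFD+AAV-BCKDK against 1.53, 0.999 and 1.11 CPM in ND+AAV-CON (0.77, 95% interval 0.27 to 1.26, adjusted p = 0.115). Ccnb1 differed by 0.88 (95% interval 0.20 to 1.55, adjusted p = 0.175). DESeq2 called Cdk1 (0.56, adjusted p = 0.0320), Hmmr (0.79, adjusted p = 0.0468) and Ube2c. The groups overlapped in Mki67 (-0.055), Aurkb (-0.026), Birc5 (-0.041) and Kif11 (0.028). Among the replication genes, none was called, and Ccne1 alone had groups that did not overlap (15.1% of all genes lay wholly lower), with 0.956, 0.919 and 0.594 CPM in HFD+AAV-BCKDK against 1.15, 1.16 and 1.92 CPM in ND+AAV-CON (-0.79, 95% interval -1.54 to -0.036, adjusted p = 0.272).

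**Figure D3:**
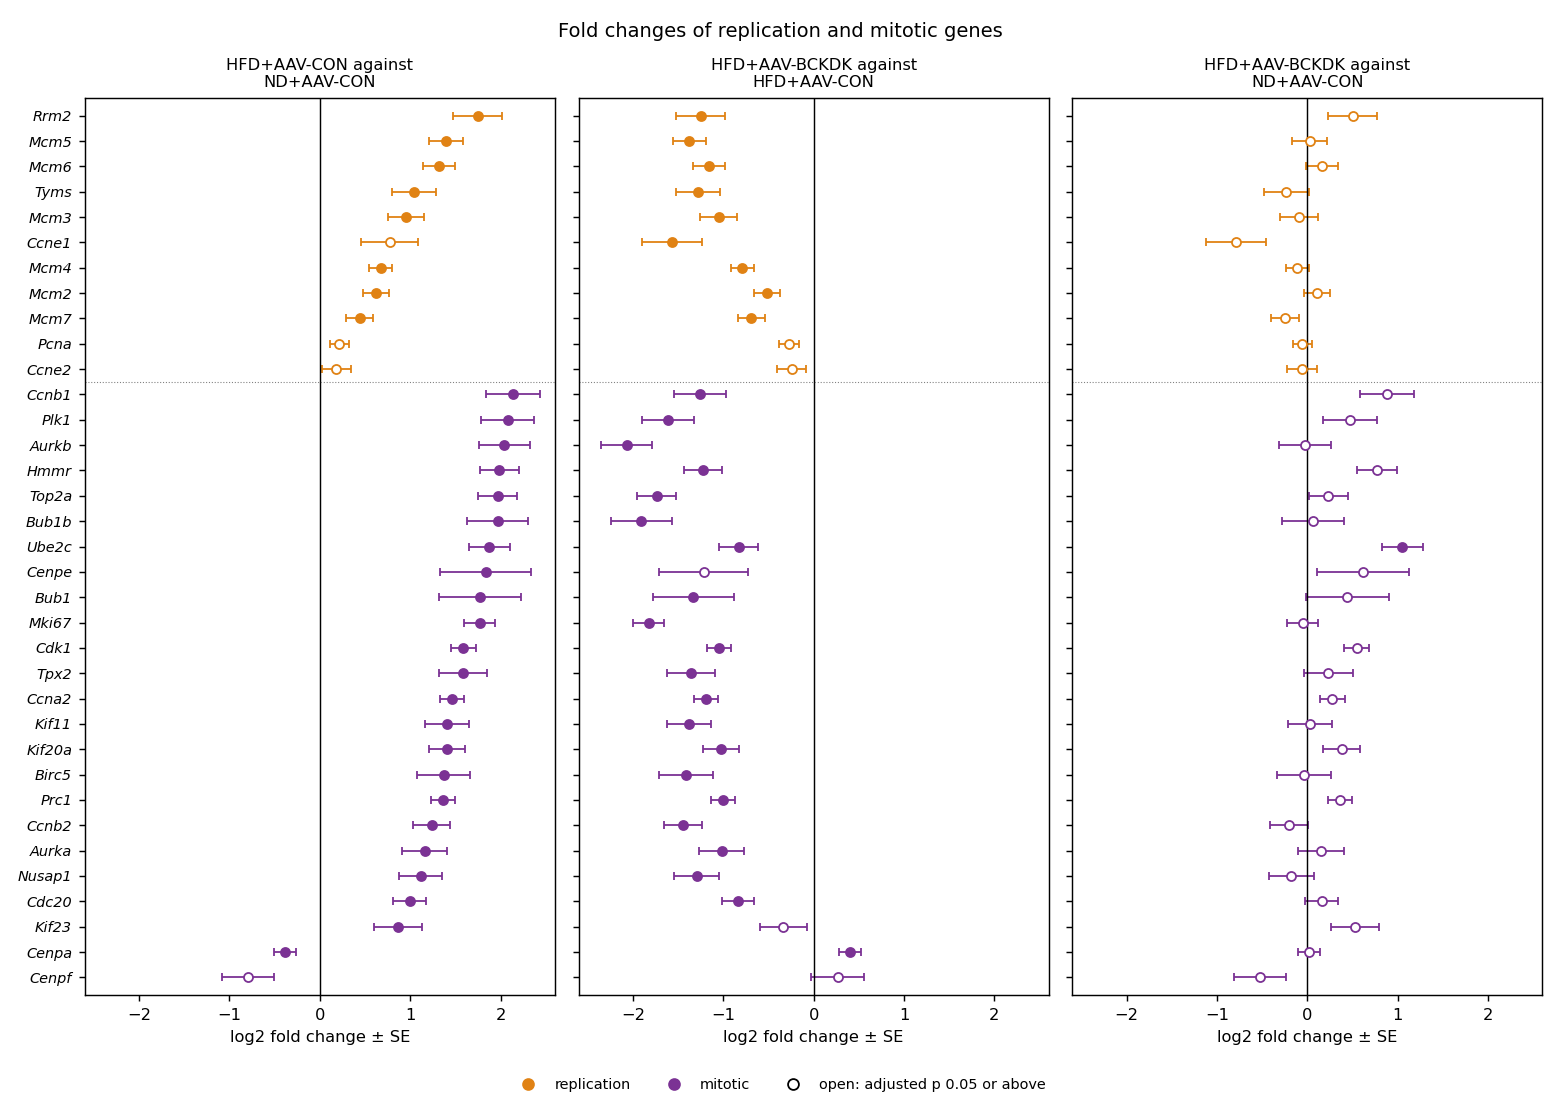
Log2 fold changes (points) with SE (bars) of the 35 genes in the 3 comparisons, replication genes in orange above the dotted line and mitotic genes in purple below it, open where the adjusted p was 0.05 or above. Most points lie right of 0 for HFD+AAV-CON relative to ND+AAV-CON, left of 0 for HFD+AAV-BCKDK relative to HFD+AAV-CON and near 0 for HFD+AAV-BCKDK relative to ND+AAV-CON, with Cenpa and Cenpf on the other side in the first 2.

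Scaling and overlapping genes limit these values in part. With total counts in place of TMM factors the median of all genes moved to 0.40 for HFD+AAV-CON relative to ND+AAV-CON and to -0.47 for HFD+AAV-BCKDK relative to HFD+AAV-CON, and 33 of the 35 genes were then called higher in the first of these comparisons and 33 lower in the second. Of all 14160 genes tested, total counts called 5986 higher in the first and 6867 lower in the second. With TMM these were 3215 and 2966. Without HFD+AAV-CON replicate 3, 7 replication and 20 mitotic genes were called higher in the first comparison, and 8 and 18 lower in the second. The sources used here do not say whether reads were counted by strand, so reads of genes that share exon with an opposite gene cannot be assigned with certainty. The shared part was 29.3% of exon length for Kif20a (with Cdc23), 22.8% for Ube2c (with Tnnc2, which had 12 reads over all libraries), 17.4% for Ccne2 (with Ints8), 12.5% for Ccna2 (with Exosc9), 11.1% for Prc1 (with Rccd1) and 7.25% for Mcm7 (with Ap4m1). Pcna, Ccnb1, Ccnb2 and Tyms have annotated pseudogenes whose reads may be split or shared; 1 of them, Pcna-ps2, was in the table, with 210 reads over all libraries.

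Other genes of the same processes were read from lists. Of 39 other replication genes, 17 were higher and 2 lower in HFD+AAV-CON than in ND+AAV-CON (22.7% and 20.6% of all genes), and 2 were higher and 21 lower in HFD+AAV-BCKDK than in HFD+AAV-CON (17.3% and 20.9% of all genes). Which libraries were used moved these counts. The 17 became 8 without ND+AAV-CON replicate 2 and 7 when replicate 1 or 3 of HFD+AAV-CON was left out, and the 21 became 10 and 12 without those HFD+AAV-CON libraries and 13 without HFD+AAV-BCKDK replicate 1 or 2; the 2 higher in the second comparison became 0 or 1 without any of these 4 libraries. Uhrf1, which carries DNA methylation through replication, had 7.96, 6.19 and 5.94 CPM in HFD+AAV-CON and 1.83, 1.32 and 1.67 CPM in ND+AAV-CON (2.06, SE 0.22, adjusted p = 0.000459). The origin factors Mcm10 (2.17), Cdc6 (1.13) and Cdt1 (0.95) rose as well. These 3 and Uhrf1 fell in HFD+AAV-BCKDK relative to HFD+AAV-CON, with changes of -1.21 (Mcm10), -1.54 (Cdc6), -1.51 (Cdt1) and -1.59 (Uhrf1). The rise of Cdc6 was not called without HFD+AAV-CON replicate 1 or ND+AAV-CON replicate 2 (adjusted p = 0.0538 and 0.0511), nor that of Cdt1 when replicate 1 or 3 of HFD+AAV-CON or replicate 3 of ND+AAV-CON was left out (adjusted p from 0.0509 to 0.0776). The fall of Mcm10 (adjusted p = 0.0482) lost its call under 11 of 20 alternatives, among them the loss of any 1 library other than HFD+AAV-CON replicate 2 and ND+AAV-CON replicate 1 (adjusted p from 0.0504 to 0.180). Gmnn, the inhibitor of Cdt1, went the other way, with 35.1, 28.8 and 26.9 CPM in HFD+AAV-BCKDK, 14.9, 22.6 and 19.2 CPM in HFD+AAV-CON and 35, 45.4 and 38.4 CPM in ND+AAV-CON. Its log2 change was -1.07 (SE 0.17, adjusted p = 0.00158) in HFD+AAV-CON relative to ND+AAV-CON and 0.68 (SE 0.17, adjusted p = 0.0137) in HFD+AAV-BCKDK relative to HFD+AAV-CON. The second was lost without HFD+AAV-BCKDK replicate 1 (0.56, adjusted p = 0.0515) and under total-count scaling (0.25, adjusted p = 0.138).

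Of 57 other mitotic genes, 47 were higher and 2 lower in HFD+AAV-CON than in ND+AAV-CON (22.7% and 20.6% of all genes). In HFD+AAV-BCKDK relative to HFD+AAV-CON, 1 was higher and 41 lower (17.3% and 20.9% of all genes). The 47 stayed within 1.5 times when any 1 library was left out, while the 41 became 23 without HFD+AAV-CON replicate 1 and 25 without replicate 3. The kinetochore gene Ndc80 had 3.82, 3.15 and 3.29 CPM in HFD+AAV-CON against 0.711, 0.756 and 0.707 CPM in ND+AAV-CON (2.24, SE 0.23, adjusted p = 0.000418). The condensin gene Ncapg2 (2.04), the motor Kif22 (1.85), the kinase subunit Cks2 (1.79), the cytokinesis gene Racgap1 (1.33) and the inhibitor of the anaphase-promoting complex Fbxo5 (1.22) rose too. These 6 fell in HFD+AAV-BCKDK relative to HFD+AAV-CON, by between -1.03 (Cks2) and -1.88 (Ncapg2). In HFD+AAV-BCKDK relative to ND+AAV-CON, 0 of the 39 and 1 of the 57 genes were called, against 2.45% of all genes. An unadjusted p under 0.05 was reached by 3 and 7 of them, against 17% of all genes. DESeq2 called 0 of the 39. The call of the 1 gene was lost without any HFD+AAV-BCKDK or ND+AAV-CON library.

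The G1 genes, which act before replication, were more mixed. Of 25 cyclins, kinases and E2F and RB family genes, 11 were higher and 3 lower in HFD+AAV-CON than in ND+AAV-CON, and 3 were higher and 8 lower in HFD+AAV-BCKDK than in HFD+AAV-CON. That is 44% higher and 12% lower in the first comparison, against 22.7% and 20.6% of all genes, and 12% higher and 32% lower in the second, against 17.3% and 20.9%. The 11 became 6 or 7 without ND+AAV-CON replicate 1 or 2 or HFD+AAV-CON replicate 1, and the 8 became 5 without HFD+AAV-BCKDK replicate 1 and 19 under total-count scaling. Ccnd1, the D cyclin that joins growth signals to the cycle, had 69.5, 67.6 and 73.6 CPM in HFD+AAV-BCKDK, 73.4, 79.9 and 75.3 CPM in HFD+AAV-CON and 56.6, 55.5 and 52.5 CPM in ND+AAV-CON. Both HFD groups lay above ND+AAV-CON, by 0.36 (HFD+AAV-BCKDK, adjusted p = 0.0371) and 0.47 (HFD+AAV-CON, adjusted p = 0.00133), and they differed from each other by -0.12 (adjusted p = 0.214). The call of Ccnd1 between HFD+AAV-BCKDK and ND+AAV-CON ended without any 1 library of these groups or HFD+AAV-CON replicate 3 (adjusted p from 0.0733 to 0.144), with the replicate block (adjusted p = 0.102) and under total-count scaling (adjusted p = 0.250). Cdk6 (0.87), Rbl1 (1.31), Myc (0.66) and E2f2 (2.19) rose in HFD+AAV-CON relative to ND+AAV-CON, and the same 4 fell in HFD+AAV-BCKDK relative to HFD+AAV-CON, by -0.94, -1.12, -1.03 and -3.01. Without ND+AAV-CON replicate 1 or 2 or HFD+AAV-CON replicate 1, the rises of Myc and E2f2 were not called, nor was that of Myc without HFD+AAV-CON replicate 3 (adjusted p from 0.0537 to 0.101). Lin52, a subunit of the MuvB core, changed by -0.69 in HFD+AAV-CON relative to ND+AAV-CON and by 0.52 in HFD+AAV-BCKDK relative to HFD+AAV-CON; both calls ended under total-count scaling (adjusted p = 0.125 and 0.733).

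Among 16 CDK inhibitors and genes of cycle exit, 5 were higher and 4 lower in HFD+AAV-CON than in ND+AAV-CON, and 3 higher and 4 lower in HFD+AAV-BCKDK than in HFD+AAV-CON. These shares, 31.2% and 25% in the first comparison and 18.8% and 25% in the second, lie near the background of 22.7% and 20.6% and of 17.3% and 20.9%. The 5 became 3 without ND+AAV-CON replicate 2 or HFD+AAV-CON replicate 1, and the 3 became 1 without HFD+AAV-BCKDK replicate 1. Under total-count scaling 8 were higher and 2 lower in the first comparison, and 1 higher and 12 lower in the second. By limma-voom, or with a filter of CPM of at least 1 in 3 libraries, 7 were lower in the second. The inhibitor Cdkn2b rose by 1.59 and the antiproliferative gene Btg1 by 1.09 in the first comparison, and they changed by -1.93 and -1.25 in the second. Cdkn2b was not called in the first without HFD+AAV-CON replicate 1 (adjusted p = 0.0512). Gadd45a, a growth arrest gene, was low in both HFD groups, with 8.46, 7.53 and 8.67 CPM in HFD+AAV-BCKDK, 4.78, 7.86 and 6.01 CPM in HFD+AAV-CON and 20.5, 23.4 and 18.0 CPM in ND+AAV-CON. It was lower than in ND+AAV-CON by -1.33 (HFD+AAV-BCKDK, adjusted p = 0.00914) and -1.74 (HFD+AAV-CON, adjusted p = 0.000429). Ccng2, a cyclin of cycle exit, was also lower than ND+AAV-CON in both HFD groups, at -0.55 (HFD+AAV-BCKDK, adjusted p = 0.00971) and -0.45 (HFD+AAV-CON, adjusted p = 0.00227). These genes were the 2 of the 16 called between HFD+AAV-BCKDK and ND+AAV-CON. Both calls were lost without ND+AAV-CON replicate 1 or HFD+AAV-BCKDK replicate 2 (adjusted p from 0.0503 to 0.0552). That of Ccng2 was also lost without replicate 3 of either group and under total-count scaling, which also ended its call in HFD+AAV-CON relative to ND+AAV-CON (adjusted p = 0.755).

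Markers of some other cell types moved with the same groups. Of all genes tested, 22.7% were called higher and 20.6% lower in the first comparison, and 17.3% higher and 20.9% lower in the second. The 10 macrophage and monocyte markers summed to 516 to 685 CPM in HFD+AAV-BCKDK, 1899 to 3123 CPM in HFD+AAV-CON and 677 to 946 CPM in ND+AAV-CON, and all 10 were higher in HFD+AAV-CON than in ND+AAV-CON and lower in HFD+AAV-BCKDK than in HFD+AAV-CON. The 7 T and NK cell markers measured summed to 2.66 to 12 CPM in HFD+AAV-BCKDK, 93.9 to 171.6 CPM in HFD+AAV-CON and 2.21 to 36.9 CPM in ND+AAV-CON, and all 7 were called in the same directions, although the 7 became 3 in the first comparison without ND+AAV-CON replicate 1. The 8 fibroblast markers summed to 1159 to 1284 CPM in HFD+AAV-BCKDK, 1897 to 4518 CPM in HFD+AAV-CON and 1326 to 1408 CPM in ND+AAV-CON; 6 were higher in the first comparison and 7 lower in the second, which became 4 without HFD+AAV-CON replicate 3. The largest changes among them were those of Postn and the collagen genes Col1a1, Col1a2 and Col3a1, which myofibroblasts express, while Tcf21, which marks resident fibroblasts, was called in neither.

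Cardiomyocyte and endothelial markers moved the other way with TMM factors. The 8 cardiomyocyte markers summed to 37100 to 41160 CPM in HFD+AAV-BCKDK, 19728 to 34372 CPM in HFD+AAV-CON and 41611 to 43888 CPM in ND+AAV-CON, with 6 lower in the first comparison and 5 higher in the second. Without HFD+AAV-CON replicate 3 the counts were 1 and 0. The 6 was 2 without ND+AAV-CON replicate 2, and the 5 was 2 without any 1 HFD+AAV-BCKDK library and 8 without HFD+AAV-CON replicate 2. Under total-count scaling the 5 was 3, and by DESeq2 it was 8. The 8 endothelial markers summed to 893 to 1012 CPM in HFD+AAV-BCKDK, 579 to 788 CPM in HFD+AAV-CON and 817 to 916 CPM in ND+AAV-CON, with 5 lower and 7 higher. Without HFD+AAV-CON replicate 3 these were 3 and 3. The 5 was also 3 without ND+AAV-CON replicate 1, and the 7 was 3 or 4 without HFD+AAV-CON replicate 1, ND+AAV-CON replicate 1 or any 1 HFD+AAV-BCKDK library. Under total-count scaling 2 endothelial markers were lower and 1 higher in the first comparison, and the 7 was 1. The 7 was 4 with a replicate block, unnamed loci kept or the 2 groups alone. B and plasma cell markers ranged from 1.5 to 5.06 CPM in HFD+AAV-BCKDK, from 82.2 to 249.5 CPM in HFD+AAV-CON and from 2.27 to 199.5 CPM in ND+AAV-CON; none of 6 was called in the first comparison (3 at an unadjusted p under 0.05, 1 by DESeq2, and 5 without ND+AAV-CON replicate 3 or 2 without HFD+AAV-CON replicate 2), and 4 were lower in the second, or 2 without HFD+AAV-BCKDK replicate 1 or 2. The erythroid markers summed to 971 to 1568 CPM in HFD+AAV-BCKDK, 460 to 902 CPM in HFD+AAV-CON and 1480 to 1657 CPM in ND+AAV-CON, with all 5 tested lower in the first comparison and higher in the second. The count of the second was 3 without HFD+AAV-CON replicate 1, 1 without its replicate 3, 0 without HFD+AAV-BCKDK replicate 1 and 2 without its replicate 3. Under total-count scaling that count was 2. Of the 6 pericyte and smooth muscle markers, 2 were lower in the first comparison (33.3%, against 20.6% of all genes). That became 1 without ND+AAV-CON replicate 2. In the second, 1 was higher (16.7%, against 17.3% of all genes), or 0 when HFD+AAV-CON replicate 3 or HFD+AAV-BCKDK replicate 1 was left out. Of the mesothelial markers 0 of 3 were called. In the first comparison 1 of them had an unadjusted p under 0.05, and 1 was called without HFD+AAV-CON replicate 2. Neutrophil markers summed to 3.36 to 9.14 CPM in HFD+AAV-BCKDK, 11.7 to 13.1 CPM in HFD+AAV-CON and 2.11 to 3.86 CPM in ND+AAV-CON. Of the 3 tested, 1 (Csf3r) was called higher in the first comparison and lower in the second. The other 2 were called in neither, and their differences in the second were positive. Elane was at 0 in all groups, and Ly6g and Mpo were at 0 in ND+AAV-CON. Transcripts of the mitochondrial genome took 45.0% to 47.6% of annotated reads in HFD+AAV-BCKDK, 26.1% to 39.9% in HFD+AAV-CON and 42.1% to 45.7% in ND+AAV-CON. Within HFD+AAV-CON, replicate 1 had the lowest mitochondrial share and the highest macrophage, T cell, fibroblast and division gene sums, and replicate 2 the reverse of each. No cardiomyocyte, fibroblast, endothelial, macrophage or T and NK cell marker was at 0 in a group. The part of these cell types and of mitochondrial share in the changes of the 35 genes was not tested.

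**Figure D4:**
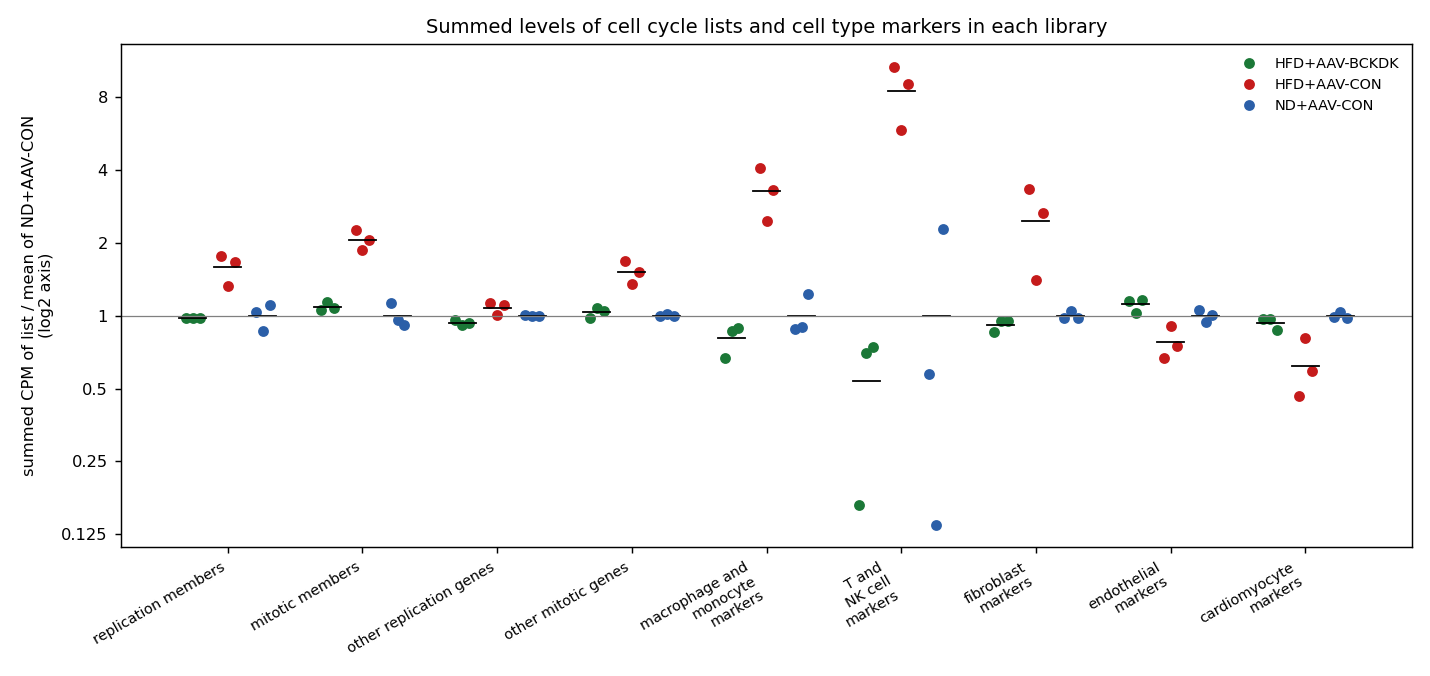
Summed CPM of each list divided by the mean of ND+AAV-CON, on a log2 axis, with 1 point per library and a bar at the group mean; green is HFD+AAV-BCKDK, red HFD+AAV-CON and blue ND+AAV-CON. The red points of the division lists and of the macrophage, T and NK cell and fibroblast markers lie above 1, and those of the cardiomyocyte and endothelial markers lie below it. Red points of the other replication genes lie only a little above 1 (263.1 to 295.3 CPM, against an ND+AAV-CON mean of 261.7 CPM).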

How the data were processed

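The deposited table holds raw counts of reads for each gene in each of 9 libraries, and the authors' file records no scaling. Per the submitters' processing notes, HISAT2 2.0.5 and build mm10 were used; the sources used here do not give the counter, its annotation or its strand setting. Loci without a gene name (4142 of 26178 entries) were left out. Counts of 22036 annotated genes were filtered with filterByExpr (14160 kept), scaled by TMM and fitted with edgeR 4.0.16 (R 4.3.3, quasi-likelihood, 1 coefficient per group, all 9 libraries). P-values were adjusted by Benjamini-Hochberg over all genes at 0.05, and every adjusted p comes from this test unless another tool is named. The SE comes from the F statistic and 95% intervals from the t distribution. CPM uses TMM-scaled library sizes, and FPKM divides it by GENCODE M21 exon length. Replicates of each group differed by more than sampling noise (chi-square per degree of freedom at least 14.9). Members and lists were chosen with earlier results of these data known. All 35 genes may be named; from each other list, up to 4 genes with the smallest p in each of the first 2 comparisons, besides cell type markers and Bckdk. Alternatives were RLE and upper-quartile factors, total counts, other filters, DESeq2 1.42.0, limma-voom 3.58.1, a replicate block, 2 groups alone, adjusted p 0.01, unnamed loci kept and each library left out. The fit was also run on counts simulated from its own model, with equal numbers of genes raised and lowered. That run cannot test the scaling under changes as many as those seen here, or whether the HFD+AAV-CON libraries are independent.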

Additional observations from a re-analysis of the deposited data

How the results depend on the processing

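Of the genes called, 26 of 31 (HFD+AAV-CON relative to ND+AAV-CON), 24 of 30 (HFD+AAV-BCKDK relative to HFD+AAV-CON) and 0 of 1 (HFD+AAV-BCKDK relative to ND+AAV-CON) kept their call and direction under all 20 alternatives. With 1 library left out, replication genes called higher in the first comparison numbered 7 to 9 (8 with all libraries) and mitotic genes 20 to 22 (22). Those called lower in the second numbered 8 to 10 (9) and 18 to 21 (20). In the third, replication genes stayed at 0 and mitotic genes at 0 to 1 (1). Under the other alternatives the first 4 counts ranged over 7 to 11, 19 to 22, 8 to 11 and 16 to 22. The mitotic count of the third comparison was 0 under total counts, limma-voom, the replicate block, 2 groups alone, adjusted p 0.01 and unnamed loci kept, and 3 under DESeq2. The only direction of a called gene that turned was that of Cenpa in HFD+AAV-BCKDK relative to HFD+AAV-CON, at -0.031 under total counts, which shift all genes (median -0.47). Over all genes, total counts gave 5986 higher and 934 lower calls in the first comparison (3215 and 2919 with TMM) and 398 higher and 6867 lower in the second (2444 and 2966). In the third, 167 genes were called higher and 180 lower, against 486 and 416 under DESeq2, 464 and 409 with 2 groups alone, 57 and 50 with the replicate block, 51 and 85 under total counts, and 24 and 19 (without ND+AAV-CON replicate 1) to 425 and 319 (without HFD+AAV-CON replicate 2) with 1 library left out. In the second, 2 groups alone gave 1491 higher and 2604 lower, and leaving out 1 library gave as few as 984 and 1863 (without HFD+AAV-CON replicate 3). In the first, leaving out that library gave 2326 and 1724. At adjusted p 0.01 the counts were 1940 and 1314, 497 and 1561, and 35 and 29 in the 3 comparisons. Same-numbered libraries of different groups correlated at -0.275 to 0.252, and differently numbered ones at -0.283 to 0.301. These ranges overlap, and with 3 libraries a group they cannot show whether the numbers pair mice. With a replicate block, 7 replication and 22 mitotic genes were higher in the first comparison and 9 and 20 lower in the second. In the third, 0 were called. The cause of these changes was not tested. In the third comparison the widest 95% interval, that of Cenpe, spanned 2.30 on the log2 scale, against 0.49 for the narrowest, that of Pcna.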
